A study of Mus musculus with 22 samples.

Results

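Genes that mark macrophages and dendritic cells were followed in the terminal ileum: Csf1r, Adgre1, Cd68, Itgax, Cx3cr1, C1qa, C1qb, Cd163, Xcr1 and Batf3. These 10 genes were chosen by symbol, and each gene was read from the probe set of highest mean over the 22 arrays. All 10 of the 10 genes were measured, among 18193 genes tested. The mice were NOD, an inbred strain that develops autoimmune diabetes, and all groups shared that strain. PAT mice received therapeutic doses of antibiotics in pulses (3 females, 5 males), STAT mice received antibiotics at a sub-therapeutic level (3 females, 3 males), and control mice, labelled only as such, were set against both (3 females, 5 males). The sources used here name no drug, dose, duration or age. Whether each sample is a separate animal is not stated, so the p-values measure the spread between these samples, which may be technical. The question was how each antibiotic regimen altered ileal gene expression.

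Intestinal macrophages and dendritic cells lie in the lamina propria beneath the epithelium. Macrophages there depend on signalling through the CSF1 receptor, clear dying cells and microbes, and are replenished in large part from blood monocytes, a process that responds to the microbiota. Conventional dendritic cells carry antigen to T cells, and the branch that depends on the transcription factor BATF3 takes up dying cells and displays XCR1 on its surface. Complement C1q is a serum recognition protein built from 3 kinds of chain, of which C1qa and C1qb encode the A and B chains, and tissue macrophages are a major source of it.

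C1qa and C1qb varied together more closely than any other pair of the 10 genes. C1qa had no entry among the RefSeq promoters, so the starts of C1qb and its neighbour C1qc are shown, and they do not cover C1qa. C1qb, C1qc (the C chain, not one of the 10) and C1qa lie next to each other on chromosome 4 of the mouse, from 136880126 to 136898844 in GRCm38.p6, a span of 18719 bases. Each sequence runs 5′ to 3′ on the minus strand, from 250 bases before a RefSeq start of the gene to 50 after it. For C1qc that start lies inside the gene's outer end at 136892936. Capitals mark GAGGAA or its reverse complement, a core of the sites read by PU.1, a transcription factor of myeloid cells.
C1qb, chr4:136886151-136886450: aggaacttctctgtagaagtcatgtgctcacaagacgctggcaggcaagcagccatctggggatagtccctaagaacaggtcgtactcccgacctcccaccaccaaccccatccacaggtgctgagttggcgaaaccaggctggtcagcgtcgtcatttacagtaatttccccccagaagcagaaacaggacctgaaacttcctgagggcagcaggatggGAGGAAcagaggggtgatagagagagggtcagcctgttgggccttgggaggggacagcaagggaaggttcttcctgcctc
C1qc, chr4:136892865-136893164: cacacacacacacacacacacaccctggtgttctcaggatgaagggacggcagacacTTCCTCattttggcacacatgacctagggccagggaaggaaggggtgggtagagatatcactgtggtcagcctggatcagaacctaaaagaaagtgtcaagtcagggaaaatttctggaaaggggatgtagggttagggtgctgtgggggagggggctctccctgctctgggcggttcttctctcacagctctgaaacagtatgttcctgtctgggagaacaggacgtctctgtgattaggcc
Each of these windows held 1 match. Of the 10 genes, 7 had an entry in the RefSeq promoter table, and 3 of those 7 (Batf3, C1qb and Cd68) held the 6 letters on either strand. The letters occurred in 28.3% of all 32851 windows of 300 bases, so a match is a description of the sequence and not a binding site.

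All values below are log2 intensities, so that a difference of 1 is a 2-fold change. The column medians of the 22 arrays lay between 5.68 and 5.79. A mean of 6 or more was found for 9 of the 10 genes, and Xcr1, at 4.44, lay below the medians of all arrays, where a change in the tissue is hard to see. RNA was taken from terminal ileum, and Epcam (an epithelial adhesion protein), at means of 14.18 in PAT, 14.13 in STAT and 14.26 in controls, and Fabp6 (the ileal bile acid carrier), at 14.44 in PAT, 14.18 in STAT and 14.23 in controls, were bright in every treatment. In such bulk tissue, fewer cells of a type and less RNA per cell cannot be told apart. The 3′ minus 5′ difference of the actin control probe sets, a sign of RNA integrity, was 0.59 and 0.60 in STAT males 2 and 3 and at most 0.42 on the other arrays.

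None of the 10 genes passed the test in PAT against control, STAT against control or PAT against STAT, in either sex alone, or between the sexes (limma, Benjamini-Hochberg adjusted p under 0.05). Averaged over the sexes, PAT against control called 0 of the 10 genes, where 11.0% of all genes tested were called. At an unadjusted p under 0.05 it called 1 of the 10, Cd163, against 24.1% of all genes. The limma differences of the 10 genes had a median of 0.08 log2, with 8 above 0 and 2 below, beside -0.0048 over all genes, of which 48.6% were above 0. Without PAT female 1, whose leukocyte markers stood apart, the median was 0.02, with 7 above 0 and 3 below. In the full fit their adjusted p-values ran from 0.077 to 0.967 (limma).

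**Figure D1:**
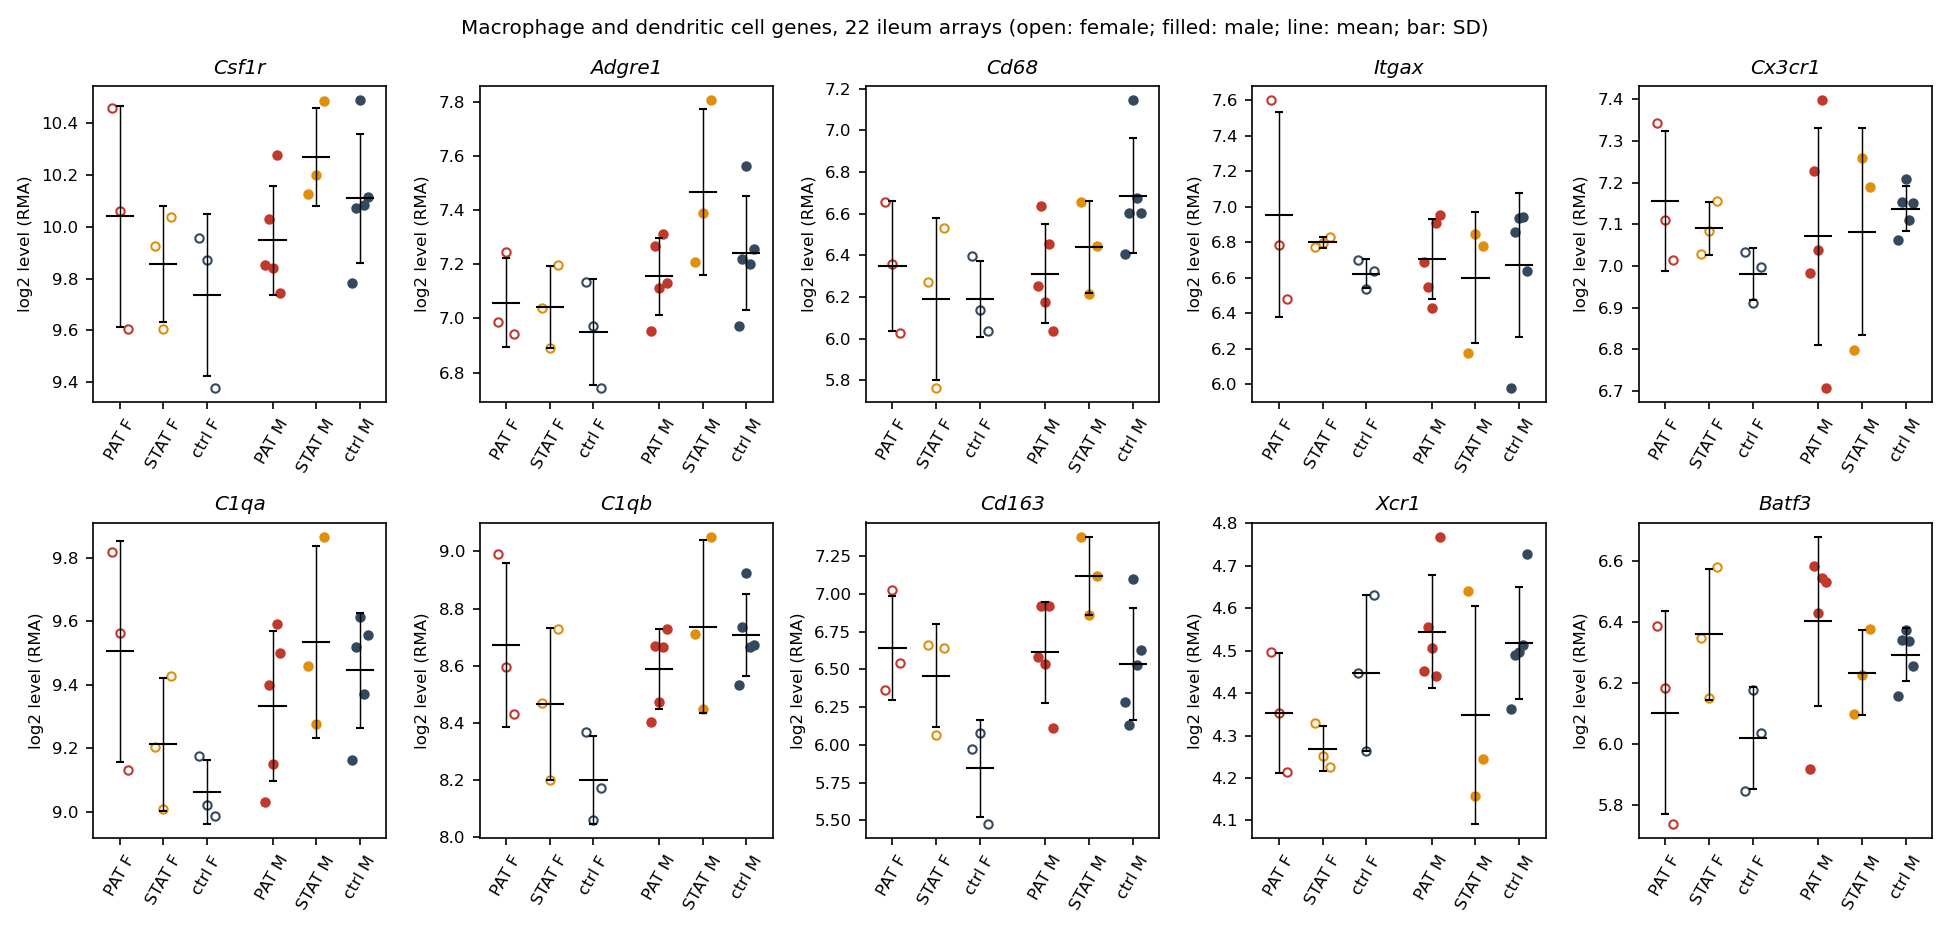
Log2 intensity (vertical axis) of each of the 10 genes in every array, by treatment and sex, with 1 point per array (open for females, filled for males), the group mean as a line and the SD as a bar. The groups overlap for most genes, and for Cd163 the 3 control females, from 5.48 to 6.08, lie below the 3 PAT females, from 6.36 to 7.02.

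Cd163, which encodes the scavenger receptor for haemoglobin bound to haptoglobin on tissue macrophages, had the largest difference of the 10 genes. It measured 6.36, 7.02 and 6.54 in PAT females, 6.66, 6.06 and 6.64 in STAT females, and 5.97, 6.08 and 5.48 in control females. It measured 6.58, 6.92, 6.53, 6.92 and 6.11 in PAT males, 7.38, 6.86 and 7.12 in STAT males, and 6.28, 6.13, 7.10, 6.53 and 6.63 in control males. All 3 PAT females lay above all 3 control females, whereas the PAT and control males overlapped and control male 3 was the highest of both. Over both sexes the level averaged 6.62 ± 0.31 in PAT (SD, n = 8), 6.79 ± 0.45 in STAT (SD, n = 6) and 6.28 ± 0.49 in controls (SD, n = 8). The difference from control was 0.44 ± 0.16 log2 for PAT (SE; 95% interval 0.11 to 0.77, or 1.08 to 1.70-fold; limma adjusted p = 0.077) and 0.60 ± 0.17 for STAT (SE; 0.25 to 0.95; limma adjusted p = 0.225). Neither passed the threshold. Without control male 3 the PAT difference was 0.51 (limma adjusted p = 0.033), and without PAT male 5 it was 0.50 (limma adjusted p = 0.038), so the call turns on single arrays.

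Cd163 also varied with fat markers. Within groups (group means removed, 22 arrays), its Pearson r with the mean level of 4 adipocyte genes (Adipoq, Fabp4, Lep and Retn, of 6 listed) was 0.82, Spearman rho 0.76, and r was 0.77 without the 2 arrays farthest from the median of the fat level, 0.87 in 9 females and 0.79 in 13 males. The same r was 0.70 with the fibroblast list, 0.38 with the other macrophage genes and 0.03 with the pan-leukocyte list. The fat level, as a mean deviation over the 4 genes, spread widely in every group, from -1.46 to 1.44 in PAT females, -0.74 to 1.02 in STAT females, -1.72 to 1.07 in control females, -1.61 to 1.39 in PAT males, -1.39 to 1.27 in STAT males and -1.39 to 2.15 in control males. With that level as a covariate, chosen after the data were seen, the Cd163 difference was 0.38 ± 0.10 for PAT against control (SE; limma adjusted p = 0.015) and 0.56 ± 0.10 for STAT against control (SE; limma adjusted p = 0.185). The part of attached fat in the level of Cd163 was not tested beyond this covariate.

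The 2 C1q genes had higher mean levels in PAT than in control females and overlapped between PAT and control males. C1qa measured 9.82, 9.56 and 9.13 in PAT females, 9.20, 9.01 and 9.43 in STAT females, and 9.18, 9.02 and 8.99 in control females. C1qb measured 8.99, 8.60 and 8.43 in PAT females, 8.47, 8.20 and 8.73 in STAT females, and 8.37, 8.06 and 8.17 in control females. For C1qb all PAT females exceeded all control females, and for C1qa PAT female 3 lay among the controls. In males, C1qb measured 8.40, 8.67, 8.47, 8.67 and 8.73 in PAT, 8.71, 8.45 and 9.05 in STAT, and 8.53, 8.74, 8.93, 8.67 and 8.67 in controls, and these ranges overlapped. C1qa in males measured 9.03, 9.40, 9.15, 9.59 and 9.50 in PAT, 9.46, 9.28 and 9.87 in STAT, and 9.16, 9.52, 9.61, 9.37 and 9.56 in controls, which overlapped as well. Averaged over the sexes, PAT differed from control by 0.17 log2 for C1qa (95% interval -0.07 to 0.40; limma adjusted p = 0.414) and by 0.18 for C1qb (-0.04 to 0.39; limma adjusted p = 0.313). Without PAT female 1, the highest PAT array for both genes, these were 0.09 for C1qa and 0.10 for C1qb.

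The receptor genes Csf1r, Adgre1 and Cx3cr1 differed little from control when the sexes were averaged. Csf1r, the receptor for the growth factors CSF1 and IL-34, averaged 9.98 ± 0.28 in PAT (SD, n = 8), 10.06 ± 0.29 in STAT (SD, n = 6) and 9.97 ± 0.32 in controls (SD, n = 8). Its PAT difference from control was 0.07 ± 0.13 (SE), with a 95% interval from -0.19 to 0.34 log2, which excludes a 2-fold change. Its STAT difference was 0.14, its PAT difference in females was 0.30 (limma adjusted p = 0.412), and without PAT female 1 the averaged PAT difference was -0.03. Adgre1, the adhesion receptor used as a classic surface marker of mouse macrophages, averaged 7.12 ± 0.15 in PAT (SD, n = 8), 7.26 ± 0.32 in STAT (SD, n = 6) and 7.13 ± 0.24 in controls (SD, n = 8). Its PAT difference was 0.01 (95% interval -0.19 to 0.21) and its STAT difference 0.16. In STAT males it was 0.23 above control (limma adjusted p = 0.456), called at 0.35 under array weights (limma adjusted p = 0.038), and -0.03 without STAT males 2 and 3. Cx3cr1, the receptor for fractalkine that marks resident gut macrophages, averaged 7.10 ± 0.22 in PAT (SD, n = 8), 7.09 ± 0.16 in STAT (SD, n = 6) and 7.08 ± 0.10 in controls (SD, n = 8). For these 3 genes the spread within each treatment exceeded the differences between the treatment means.

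Cd68, a glycoprotein of the lysosome in macrophages, had the lowest PAT difference in males. It measured 6.26, 6.64, 6.18, 6.46 and 6.04 in PAT males, 6.66, 6.21 and 6.45 in STAT males, and 6.41, 6.60, 7.14, 6.67 and 6.60 in control males. PAT males 2 and 4 lay above the lowest control and the other 3 PAT males below it. The male PAT difference was -0.37 ± 0.16 log2 (SE; 95% interval -0.70 to -0.05; limma adjusted p = 0.143), and it was the one gene of the 10 with an unadjusted p under 0.05 in males, where 25.0% of all genes reached that and 9.02% were called after adjustment. In females Cd68 measured 6.65, 6.36 and 6.03 in PAT, 6.27, 5.77 and 6.53 in STAT, and 6.40, 6.14 and 6.04 in controls, with the groups overlapping. Over both sexes the PAT difference was -0.11 (95% interval -0.38 to 0.16).

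Itgax, the CD11c integrin chain of dendritic cells and of some macrophages, had 1 high array. It measured 7.60, 6.78 and 6.48 in PAT females, 6.77, 6.80 and 6.83 in STAT females, and 6.70, 6.54 and 6.64 in control females. PAT female 1, the high one, also stood apart on other leukocyte markers: the B cell list (8 genes) deviated by 1.20 there, against -0.06 and -0.08 on the other PAT females, and the pan-leukocyte list (6 genes) by 1.34, against -0.06 and -0.47. The part of these cells in the result was not tested. The female PAT difference of Itgax was 0.33 ± 0.25 (SE; limma adjusted p = 0.481), and without PAT female 1 it was 0.01. In males Itgax ranged from 6.43 to 6.95 in PAT, 6.17 to 6.84 in STAT and 5.98 to 6.94 in controls, and the ranges overlapped.

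Batf3 and Xcr1 are used as markers of the cross-presenting dendritic cells. Batf3, the transcription factor they need, averaged 6.29 ± 0.32 in PAT (SD, n = 8), 6.30 ± 0.18 in STAT (SD, n = 6) and 6.19 ± 0.18 in controls (SD, n = 8). Its PAT difference was 0.10 (95% interval -0.12 to 0.31) and its STAT difference 0.14. Xcr1, the receptor for the chemokine XCL1, averaged 4.47 ± 0.16 in PAT (SD, n = 8), 4.31 ± 0.17 in STAT (SD, n = 6) and 4.49 ± 0.14 in controls (SD, n = 8). Its STAT difference was -0.17 ± 0.08 (SE; 95% interval -0.35 to 0.0011; limma adjusted p = 0.383), with both group means under the array medians.

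**Figure D2:**
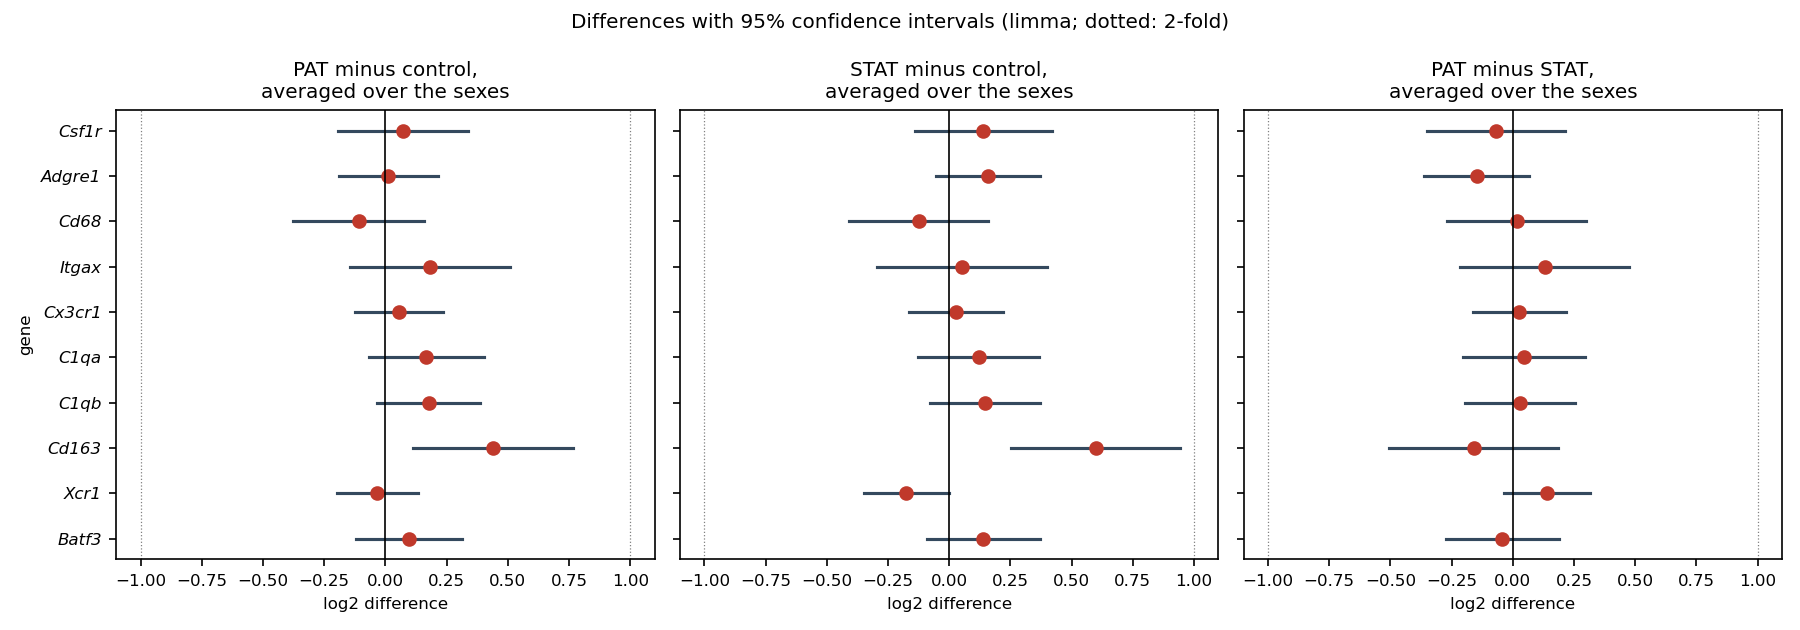
Log2 difference (horizontal axis) of each of the 10 genes (vertical axis) in PAT minus control, STAT minus control and PAT minus STAT, averaged over the sexes, with 95% intervals from limma as bars and dotted lines at a 2-fold change. The intervals of Cd163 lie above 0 for PAT (0.11 to 0.77) and STAT (0.25 to 0.95), and no interval reaches the dotted lines.

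STAT against control called 0 of the 10 genes, and limma called 0.00% of all genes. At an unadjusted p under 0.05 it called 1 of the 10, Cd163, against 13.1% of all genes. The median difference of the 10 genes was 0.13, beside -0.0039 over all genes, and it was 0.05 without STAT males 2 and 3, with Itgax at -0.16 and Cx3cr1 at -0.11. Under array weights, which down-weight variable arrays, Cd163 (0.50; limma adjusted p = 0.022) and Xcr1 (-0.21; limma adjusted p = 0.038) were called in this comparison. Those weights were 0.32 for STAT male 1, 1.68 for STAT male 2 and 2.82 for STAT male 3. Without STAT males 2 and 3, the arrays with the larger actin end difference, the STAT difference was 0.73 ± 0.21 for Cd163 (SE; limma adjusted p = 0.663) and -0.03 for Xcr1, with STAT male 1, the lone male left, assumed to vary like the other groups. PAT against STAT called 0 of the 10 genes, beside 5.88% of all genes, and at an unadjusted p under 0.05 it called 0 of the 10 against 20.7%. Its differences ran from -0.16 for Cd163 (95% interval -0.51 to 0.19) to 0.14 for Xcr1 (-0.03 to 0.32), with limma adjusted p-values from 0.365 to 0.968. Without STAT males 2 and 3 they ran from -0.29 for Cd163 to 0.34 for Itgax, with Xcr1 at -0.0049. Without PAT female 1 they were below 0 for 9 of the 10 genes, against 4 with it. The ileal enterocyte list (6 genes) ran from 0.16 to 0.63 in PAT females against -0.43 to 0.14 in STAT females. In males it ran from -0.04 to 0.96 in PAT against -0.81 to -0.33 in STAT. Neither pair of ranges overlapped, and the part of these cells in PAT against STAT was not tested. The 3 comparisons share arrays, and PAT and STAT share their controls.

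In females, PAT against control called 0 of the 10 genes, beside 3.35% of all genes. An unadjusted p under 0.05 was reached by C1qa, C1qb and Cd163, which is 3 of 10, against 20.9% of all genes. The differences were 0.80 ± 0.25 for Cd163 (SE; 95% interval 0.28 to 1.31; limma adjusted p = 0.071), 0.47 ± 0.16 for C1qb (0.14 to 0.81; limma adjusted p = 0.097) and 0.44 ± 0.18 for C1qa (0.07 to 0.81; limma adjusted p = 0.156). Without PAT female 1 they were 0.94, 0.31 and 0.29. The PAT and control females did not overlap for 2 of the 10 genes, C1qb and Cd163, both higher in PAT, while 14.7% of all genes were higher without overlap in these small groups. The endothelial list in the same females ran from -0.01 to 0.56 in PAT against -0.41 to -0.11 in controls, and its part in these results was not tested. STAT against control called 0 of the 10 genes in either sex, and 0.00% of all genes in each (limma). At an unadjusted p under 0.05 it called 1 of the 10, Cd163, in females (3.31% of all genes) and in males (15.7% of all genes). Cd163 was 0.61 ± 0.25 above control in STAT females (SE; limma adjusted p = 1.0) and 0.58 ± 0.22 above control in STAT males (SE; limma adjusted p = 0.202). The fibroblast list ran from 0.07 to 0.67 in STAT males and from -0.21 to 0.30 in control males, and its part was not tested.

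Of the 10 PAT differences from control, 9 were above 0 in females (median 0.24 log2) and 4 in males (median -0.08). Without PAT female 1 the female median was 0.09, with 8 above 0. The PAT effect was compared between the sexes directly. The female effect exceeded the male effect by 0.72 ± 0.31 log2 for Cd163 (SE; limma adjusted p = 0.229), 0.59 ± 0.20 for C1qb (SE; limma adjusted p = 0.157), 0.55 ± 0.22 for C1qa (SE; limma adjusted p = 0.204) and 0.53 ± 0.26 for Cd68 (SE; limma adjusted p = 0.272). The comparison called 0 of the 10 genes and 0.00550% of all genes, so no sex difference in the PAT effect passed the test. An unadjusted p under 0.05 was reached by 3 of the 10 (C1qa, C1qb and Cd163), against 18.6% of all genes. For the STAT effect 0 of the 10 genes reached an unadjusted p under 0.05, against 3.44% of all genes, and 0.00% of all genes were called by limma.

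**Figure D3:**
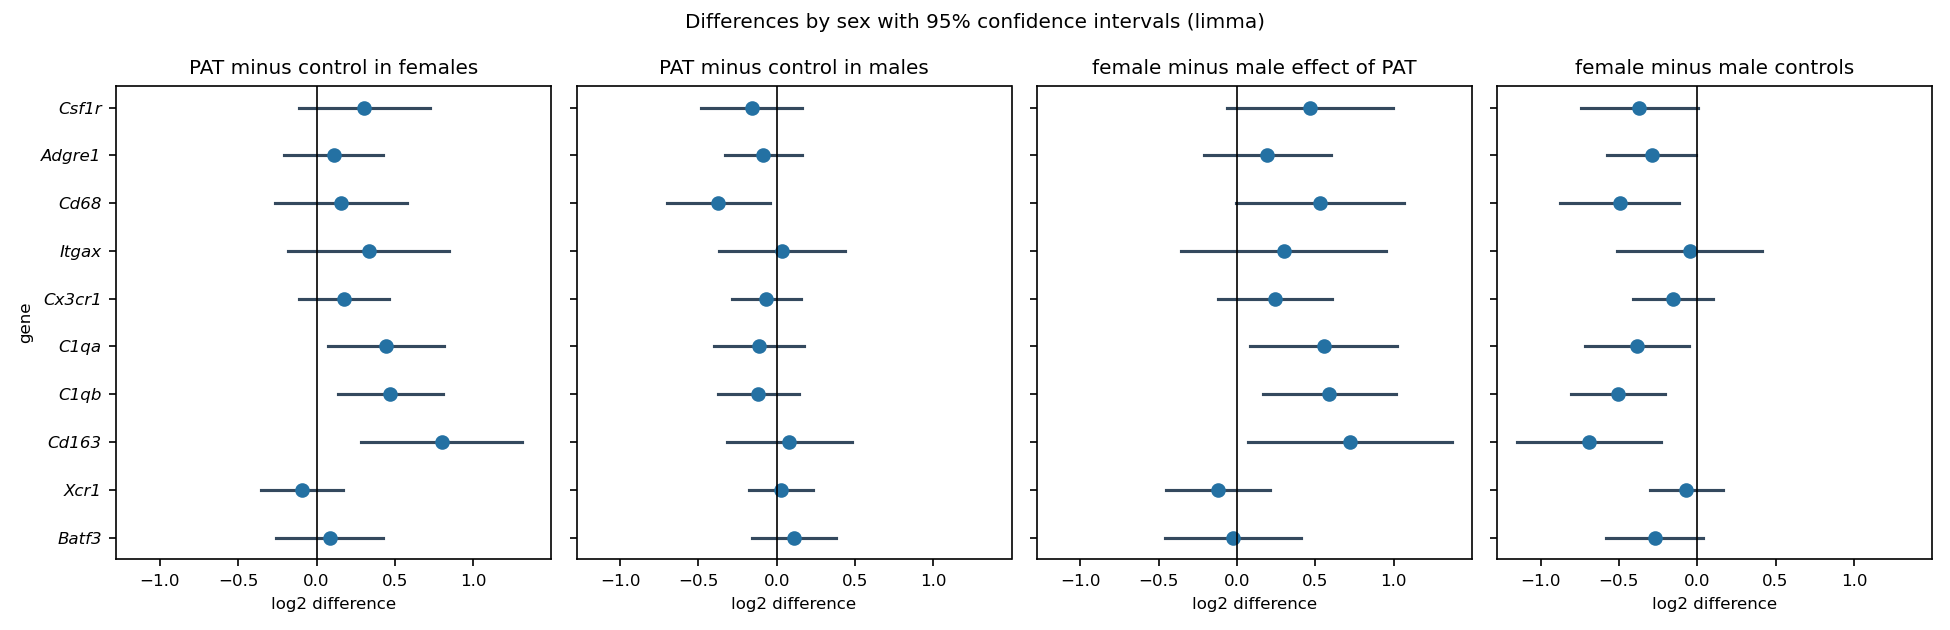
Log2 difference (horizontal axis) of each of the 10 genes (vertical axis) in PAT minus control in females, PAT minus control in males, the female minus male effect of PAT, and female minus male controls, with 95% intervals from limma as bars. Of the 10 points, 9 lie right of 0 in the first panel and 8 in the third, with C1qa, C1qb and Cd163 among them in both. All 10 points lie left of 0 in the last.

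Among controls, all 10 genes were lower in females than in males, with a median difference of -0.33 log2 beside -0.0050 over all genes. None was called, where 0.0550% of all genes were. An unadjusted p under 0.05 was reached by 5 of the 10 genes, Adgre1, Cd68, C1qa, C1qb and Cd163, all lower in females, against 12.5% of all genes in either direction. The largest differences were -0.69 ± 0.22 for Cd163 (SE; limma adjusted p = 0.213), -0.51 ± 0.14 for C1qb (SE; limma adjusted p = 0.158) and -0.50 ± 0.18 for Cd68 (SE; limma adjusted p = 0.269). The female and male controls did not overlap for 4 of the 10 genes (Cd68, Cx3cr1, C1qb and Cd163), against 5.27% of all genes that were lower without overlap. The 3 control females enter both this comparison and the female PAT effect. Of the other macrophage and monocyte genes, 24 of 30 lay below 0 in the same comparison, with a median of -0.26. Some leukocyte lists moved with it. The pan-leukocyte list (6 genes) marks leukocytes in general, macrophages and dendritic cells among them. It ran from -0.46 to -0.29 in control females against -0.05 to 0.32 in control males, without overlap. The plasma cell list (6 genes) ran from -0.48 to -0.14 in control females against -0.07 to 0.34 in control males, also without overlap. The B cell, neutrophil, mast cell and eosinophil lists overlapped between control females and males. So did the T cell list, at 0.02 to 0.13 in control females and -0.12 to 0.12 in control males. The part of other leukocytes in the result was not tested.

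Most pairs of the 10 genes correlated positively within groups. Over the 22 arrays, with group means removed, the 45 pairs had Pearson r from -0.38 to 0.91 with a median of 0.46, and 40 were above 0 (88.9%), beside 54.0% of all pairs among genes whose mean was 6 or more. Without Xcr1, whose mean was under 6, 35 of 36 pairs were above 0. The mix of cells differed between arrays, and these values describe that variation along with any other. Csf1r, Adgre1, Cd68, C1qa and C1qb, grouped by hand for description, formed 10 pairs with r from 0.55 to 0.91. Some pairs outside this group lay in the same range, among them C1qa with Batf3 (0.75), Cd68 with Cd163 (0.70) and Csf1r with Itgax (0.62). Others lay below it, such as Cd68 with Itgax (0.32) and Itgax with Cd163 (-0.13). C1qa and C1qb had the highest r of all pairs, 0.91, with Spearman rho 0.91, 0.92 in females and 0.92 in males. Xcr1 stood apart, with r from -0.38 to 0.33 in its 9 pairs. Its r with Batf3 was 0.14, while Batf3 had r = 0.75 with C1qa and 0.64 with C1qb. Cd163 followed Cd68 (r = 0.70), Adgre1 (r = 0.58) and Csf1r (r = 0.56) more closely than C1qa (r = 0.28) or C1qb (r = 0.24). These values differed between the sexes. Cd163 had r = 0.91 with Cd68 in males and 0.43 in females, and 0.44 with Adgre1 in males and 0.86 in females.

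**Figure D4:**
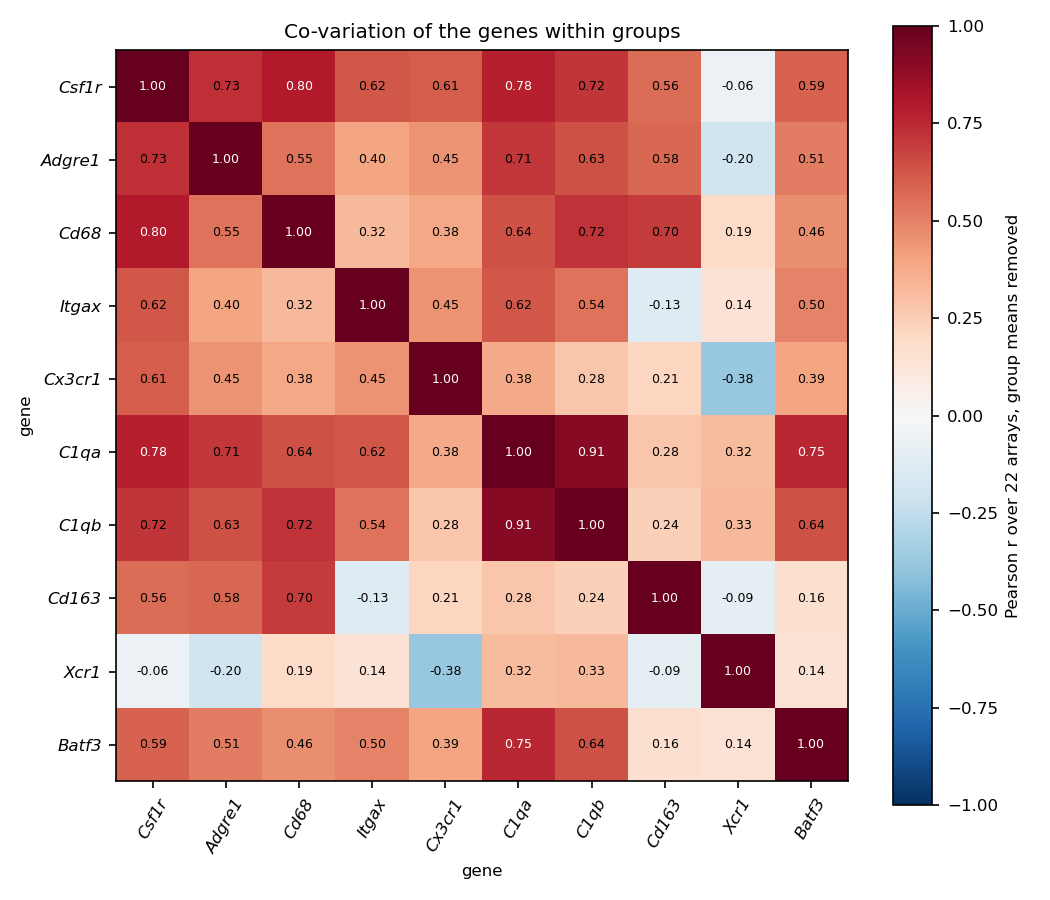
Pearson r (colour scale, printed in each cell) for every pair of the 10 genes over 22 arrays after removing the 6 group means. The pair C1qa and C1qb reads 0.91, and the Xcr1 row is pale, from -0.38 to 0.33.

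Over 11450 genes whose mean was 6 or more, the ones most like C1qb were C1qc (r = 0.92), C1qa (r = 0.91), Ms4a7 (r = 0.88), Aif1 (r = 0.87) and Tyrobp (r = 0.85), of which C1qc, Ms4a7, Aif1 and Tyrobp are genes of the other macrophage list. Those most like C1qa began with C1qc (r = 0.92), C1qb (r = 0.91) and Ms4a6c (r = 0.85). For Cd163 they were Penk (r = 0.93), Prnp (r = 0.91), Htra3 (r = 0.90), Timp2 (r = 0.90) and Gnai1 (r = 0.90), none of them in that list. For Csf1r they began with Nrp1 (r = 0.92) and Celf2 (r = 0.91), and for Cd68 with Col14a1 (r = 0.89) and Fcgr3 (r = 0.89). For Batf3 they began with Ccrl2 (r = 0.86) and Ppp1r18 (r = 0.85), and for Adgre1 with Anxa6 (r = 0.88) and Pcsk6 (r = 0.86). For Itgax they began with Mgme1 (r = 0.84) and Hoxc4 (r = 0.83), and for Cx3cr1 with Igfbp3 (r = 0.86) and Arrdc3 (r = 0.84). For Xcr1, set against 11451 genes, they began with Mir142 (r = 0.81) and Endou (r = 0.78). The mean of the other macrophage list had r = 0.87 with C1qb, 0.86 with C1qa, 0.82 with Cd68 and 0.75 with Csf1r. It had r = 0.64 with Batf3, 0.52 with Itgax, 0.51 with Adgre1, 0.41 with Xcr1 and 0.25 with Cx3cr1. The endothelial list had a higher r than that for Csf1r (0.92), Adgre1 (0.70), Batf3 (0.67), Itgax (0.62), Cx3cr1 (0.62) and Cd163 (0.44). Its r was lower for C1qa, C1qb, Cd68 and Xcr1. The fibroblast list had r = 0.81 with Adgre1.

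Related genes were read in the same comparison of PAT against control, averaged over the sexes. Of 30 other macrophage and monocyte genes measured (33 listed), 0 rose and 3 fell, with a median of 0.02. Of 24 other dendritic cell genes measured (25 listed), 0 rose and 1 fell, with a median of 0.03. Of 21 ligands, growth factors and their other receptors measured (25 listed), 1 rose and 2 fell, with a median of 0.03. Among all genes 4.61% rose and 6.38% fell, and the difference between these lists and the 10 genes was not tested. In STAT against control and in PAT against STAT, limma called 0 genes of these 3 lists.

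Cd14, the co-receptor for bacterial lipopolysaccharide, fell to between 9.74 and 10.62 in PAT, with a median of 10.44, against 10.67 to 11.32 in controls, with a median of 10.84. The difference was -0.59 ± 0.15 (SE; limma adjusted p = 0.013), and every PAT array lay below every control array, which held for 1.15% of all genes. Without PAT female 1 its adjusted p was 0.051 (limma). Lgmn, the lysosomal protease legumain, likewise without overlap, fell to between 8.40 and 8.98 in PAT, with a median of 8.87, against 9.01 to 10.13 in controls, with a median of 9.33 (difference -0.57 ± 0.16, SE; limma adjusted p = 0.023). Its call was lost without PAT female 1 or control female 3, with a limma adjusted p of up to 0.078. Ctss, the lysosomal protease cathepsin S that trims antigen for presentation, averaged 11.75 ± 0.25 in PAT and 12.17 ± 0.14 in controls (SD, n = 8 each; difference -0.47 ± 0.10, SE; limma adjusted p = 0.004). Its call held without any 1 of the 16 arrays but not with the Gapdh covariate given below. Tlr3, a sensor of double-stranded RNA, fell by 0.35 log2 (limma adjusted p = 0.019), a call lost without PAT female 1 or control female 1. These genes are also expressed by cells other than macrophages and dendritic cells, among them epithelium for several, and the source was not tested.

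Among the ligands, Il34, which encodes the second ligand of CSF1R, averaged 5.82 ± 0.16 in PAT and 5.48 ± 0.13 in controls (SD, n = 8 each; difference 0.36 ± 0.08, SE; limma adjusted p = 0.006), at a level near the array medians. Ccl20, the epithelial chemokine that draws CCR6-bearing cells, averaged 6.84 ± 0.34 in PAT and 7.62 ± 0.39 in controls (SD, n = 8 each; difference -0.74 ± 0.17, SE; limma adjusted p = 0.009). Cd47, the surface signal that restrains engulfment by macrophages, averaged 10.65 ± 0.19 in PAT and 11.10 ± 0.18 in controls (SD, n = 8 each; difference -0.41 ± 0.10, SE; limma adjusted p = 0.012). These 3 calls held without any 1 of the 16 arrays but not with the Gapdh covariate. Csf1, the other ligand of CSF1R, differed by -0.08 (limma adjusted p = 0.782), Cx3cl1, the ligand of CX3CR1, by -0.15 (limma adjusted p = 0.427), and Xcl1, the ligand of XCR1, by -0.0041 (limma adjusted p = 0.982). In PAT males against control males, Irf8, a transcription factor of the same dendritic branch, fell by 0.40 log2 (limma adjusted p = 0.018) and Cd83, a marker of dendritic cell maturation, fell by 0.81 (limma adjusted p = 0.040). Irf8 was not called without PAT male 2, and Cd83 was not called in 7 of 10 fits without 1 array. The other dendritic cell list (24 genes) overlapped between PAT males, from -0.11 to 0.04, and control males, from -0.02 to 0.21. Which cells the falls of Irf8 and Cd83 came from was not tested. In the same males Ccl20 fell by 0.93 (limma adjusted p = 0.010), Cd47 by 0.54 (limma adjusted p = 0.010) and Lgmn by 0.67 (limma adjusted p = 0.032, lost in 5 of 10 fits without 1 array). In PAT females Ctss fell by 0.64 (limma adjusted p = 0.028, lost in 5 of 6 fits without 1 array). The Gapdh end difference, another sign of RNA integrity, ran from -0.11 to -0.03 in PAT females against -0.20 to -0.09 in control females, and from -0.23 to -0.08 in PAT males against -0.26 to -0.20 in control males. With it as a covariate the averaged differences were -0.29 ± 0.14 for Cd14, -0.31 ± 0.16 for Lgmn, -0.30 ± 0.10 for Ctss, -0.31 ± 0.12 for Tlr3, 0.26 ± 0.09 for Il34, -0.58 ± 0.20 for Ccl20 and -0.31 ± 0.12 for Cd47 (SE), and all 7 calls were lost (limma adjusted p from 0.103 to 0.355). All 7 differences were smaller in size with the covariate and kept their sign. The male differences were -0.43 ± 0.12 for Irf8 (SE; limma adjusted p = 0.038) and -0.999 ± 0.27 for Cd83 (SE; limma adjusted p = 0.030), and both calls were kept, while those of Ccl20, Cd47 and Lgmn in males and Ctss in females were lost.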

How the data were processed

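RNA from the terminal ileum was extracted with TRIzol and column cleanup and hybridised to 1-colour Affymetrix arrays, per the labels' protocols. The authors deposited log2 values per probe set, made with RMA in affy per the submitters' processing notes, with versions not given in the sources used here. RMA corrects background, makes the arrays' distributions alike and sums probes, which can damp a shift shared by all genes. Of 45101 probe sets, 34945 had 1 gene symbol, 932 had several, 9160 had none and 64 were controls. Per gene the probe set of highest mean was kept (18193 genes). Groups follow the labels' treatment and sex. limma 3.58.1 in R 4.3.3 was fitted to all 22 arrays with 1 mean per group (16 residual degrees of freedom), and p-values were Benjamini-Hochberg adjusted over all genes. Comparisons over both sexes average the female and male differences. No pair of the 231 array pairs was identical (correlations 0.984 to 0.997). The fit was tested on simulated data. The text names the 10 genes, called genes of 3 related lists, and the genes most correlated with each of the 10 (at most 5 for each). Marker lists of 14 cell types gave the levels beside the results. The members and lists were chosen with earlier results of these data known. Alternatives were probe set choice, normalization, dim-gene filter, array weights, covariates, the groups fitted, and leaving out arrays. The number of arrays limits the precision.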

Additional observations from a re-analysis of the deposited data

Results flagged for a closer look

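Batf3 in PAT male 1 measured 5.92, the lowest of the 5 PAT males, whose other values lay between 6.43 and 6.58. Its gap to the nearest array was 0.77 of the group's range, past Dixon's critical value of 0.71 for 5 arrays. It was the 1 array singled out in 20 groups tested, and chance alone gives about 1 in 20.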

How the results depend on the processing

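No paired analysis was possible because the replicate numbers follow accession order and pair no samples. In the 10 comparisons, 2110 differences of the 10 genes were recomputed; 2101 were still not called, 9 were called, and none of the called ones changed sign. Against a count of 0 genes called in each comparison, array weights called 2 in STAT against control over both sexes (Cd163 and Xcr1), 2 in STAT males (Adgre1, 0.35, limma adjusted p = 0.038, and Xcr1, -0.31, limma adjusted p = 0.013; without STAT males 2 and 3 these turned to -0.03 and 0.12) and 1 in PAT females (Cd163, 0.83, limma adjusted p = 0.027). The adipocyte covariate, added after the data were seen, called 1 in PAT against control over both sexes and 1 in PAT females (Cd163 in both, 0.70 in females, limma adjusted p = 0.018). Leaving out 1 array gave 0 to 1 in PAT against control over both sexes and 0 in the other comparisons. Signs changed in 44 of the 100 differences, all of at most 0.30 in size. The cause of these changes was not tested. Counts over all genes moved more. PAT against control over both sexes called 1999, against 756 with the Gapdh covariate, 3089 probe sets taken singly, and 1353 to 2494 without 1 array. PAT against STAT called 1069, against 516 with only the groups compared, 2631 with array weights, 503 without STAT males 2 and 3, 1755 probe sets, and 633 to 1676 without 1 array. In males PAT against control called 1641, against 951 with only the groups compared, 1050 with the Gapdh covariate, 2530 probe sets, and 833 to 2089 without 1 array. In females it called 610, against 1524 with array weights, 0.781% of all genes with the Gapdh covariate, and 123 to 751 without 1 array. STAT against control over both sexes called 0, against 2288 with array weights, 1 with only the groups compared, and 0 to 1053 without 1 array. In males it called 0, against 4069 with array weights, 9 without STAT males 2 and 3, 1 probe set, and 0 to 1973 without 1 array (the highest without STAT male 1). The female minus male effect of PAT called 1, against 165 with array weights, 4 with the adipocyte covariate, 2 after median centring, 0 under 5 other settings, and 0 to 59 without 1 array. The sex comparison of controls called 10, against 332 with array weights, 19 with the mean of probe sets, 16 with the Gapdh covariate, 26 probe sets, and 7 to 17 without 1 array. Cd83, Irf8 and Lgmn in males lost their calls with quantile normalization repeated, Cd83 also with a trended robust prior, Irf8 with only the groups compared, and Cd47 and Tlr3 with the mean of probe sets. Xcr1 lay below the array medians, where small differences cannot be resolved.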

Other observations

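Several of the 10 genes have more than 1 probe set: 3 genes hold 8 of the 15 probe sets, and limma called 0 of the 15 in PAT against control over both sexes, with 1 at an unadjusted p under 0.05. In STAT against control it called 0 of the 15 as well. There 2 of the 15 reached an unadjusted p under 0.05 over both sexes and 3 in males, so those counts depend on the probe set used. The probe sets of C1qb disagreed in STAT males against control males, at 0.03 for the one used and at 0.75 ± 0.25 (SE; limma adjusted p = 0.159) and 0.37 for the other two.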
